A study of Mus musculus with 40 samples.

Results

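The transcripts of transposable elements (TE) were compared between long-term (LT-HSC WT) and short-term (ST-HSC WT) blood stem cells from the bone marrow of wild-type mice, with 4 libraries in each group. These 8 libraries of the 40 in the study were chosen by their labels, and every one of the 1146 TE subfamilies of the deposited table was read in them. The study asks what loss of Dnmt3a, a DNA methyltransferase, changes in blood stem and progenitor cells. It holds the same pair of populations after Dnmt3a knockout (LT-HSC KO and ST-HSC KO, 4 libraries each), from Dnmt3a f/f mice with Mx1-Cre, whose promoter responds to interferon and is also active outside blood cells. How Cre was induced, whether the WT mice carried it, and the strain, age and number of the mice are not given. The sex of the LT-HSC libraries was read from Xist, made from the inactive X, and Ddx3y, a gene of the Y chromosome. By these, LT-HSC WT 1 and 2 were male and LT-HSC WT 3 and 4 female. Wild-type common and granulocyte-macrophage progenitors (CMP/GMP WT, 4 libraries) are set beside the stem cells where a yardstick is needed. The study also holds Dnmt3a-KO CMP/GMP, WT and Dnmt3a-KO megakaryocyte-erythroid progenitors (MEP), and c-kit+ bone marrow cells. The c-kit+ libraries were WT, Dnmt3a-KO, Sting-KO or knockout of both genes (DKO). TE reads per library, in M (1e6 reads), were 2.49, 1.31, 2.41 and 2.98 M in LT-HSC WT 1 to 4 and 0.840, 1.56, 2.40 and 2.55 M in ST-HSC WT 1 to 4. All levels are shares of the TE reads of a library, in percent or as RPM (here, reads per 1e6 TE reads), so they tell how TE transcripts are divided among elements and not how much TE RNA a cell holds. Differences and log2 fold changes are LT-HSC minus ST-HSC.

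LT-HSC rebuild blood for the life of an animal, and ST-HSC, which arise from them, do so for a limited time. TE are mobile sequences, most of whose copies can no longer move. LTR elements resemble retroviruses, LINE encode their own reverse transcriptase, SINE are short and borrow that of LINE, and DNA elements moved without an RNA copy. Cells keep young LTR and LINE copies silent through DNA methylation and histone marks, and TE transcripts can form double-stranded RNA that cytosolic sensors recognise. Many copies lie inside genes, and in polyA RNA a read from such a copy cannot be told from a read of the gene that carries it. In bulk libraries, fewer cells of a type and less RNA per cell cannot be told apart either.

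LT-HSC WT 1 stood apart from the other LT-HSC WT libraries in both its TE and its gene reads. The counts of subfamilies called between LT-HSC WT and ST-HSC WT are therefore given with and without it. So are the values of some subfamilies and element groups. Others moved as well, so an element given with 1 value only is not thereby unaffected by this library. Its log2 TE levels correlated with those of the other 3 LT-HSC WT libraries at 0.853 to 0.898, over the 482 subfamilies with a mean of at least 100 RPM. Those 3 correlated with each other at 0.926 to 0.962, and with the ST-HSC WT libraries at 0.929 to 0.966. Its gene reads held granulocyte markers that the other LT-HSC WT libraries nearly lacked. Mpo, the myeloperoxidase of granulocytes, was at 1378 CPM (reads per 1e6 gene reads) in LT-HSC WT 1 and at 3.87, 0.913 and 2.14 CPM in LT-HSC WT 2 to 4. The summed level of 5 granulocytic and monocytic markers was 2404 CPM in LT-HSC WT 1 and 0.961 to 4.34 CPM in the others, and that of 3 megakaryocytic markers was 2596 CPM against 241 to 322 CPM. The 11 LT-HSC markers were detected in every LT-HSC WT library, with sums of 1530 CPM in LT-HSC WT 1 and 2372 to 3367 CPM in the others, and the 3 B cell markers were at 0 in all 4. LT-HSC WT 1 also had 12.4 TE reads per 100 gene reads, against 4.16 to 6.50 in LT-HSC WT 2 to 4. The sum of 4 erythroid markers went the other way, at 28.4 CPM in LT-HSC WT 1 and 113 to 271 CPM in the others. Whether these marker reads came from other cells or from the sorted cells was not tested. Their relation to the TE levels of LT-HSC WT 1 was not tested either. Markers of the ST-HSC libraries were not analysed here.

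Both populations divided their TE reads among the main classes in nearly the same way. SINE took more than 50% of TE reads in every library, LINE and LTR elements about equal shares, and DNA elements the least of the 4 main classes. The SINE share was 62.6%, 54.4%, 54.5% and 52.9% in LT-HSC WT 1 to 4 and 56.2%, 54.4%, 54.0% and 53.5% in ST-HSC WT 1 to 4. LT-HSC WT 1 was the highest of the 8, and the other 7 lay within each other's range or close to it. The mean SINE share was 56.1% ± 4.39 in LT-HSC WT and 54.5% ± 1.22 in ST-HSC WT (SD, n = 4 each; difference 1.56 points, two-sided exact permutation p = 0.771, adjusted p = 0.900 over 14 classes). Without LT-HSC WT 1 the LT-HSC WT mean was 53.9% ± 0.872 and the difference turned to -0.608 points (exact permutation p = 0.514).

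The LTR share was 14.8%, 19.6%, 19.3% and 19.2% in LT-HSC WT and 19.1%, 18.8%, 19.0% and 20.4% in ST-HSC WT. LT-HSC WT 1 was the lowest of all, and the other 3 LT-HSC WT libraries lay inside the range of ST-HSC WT. The means were 18.2% ± 2.28 in LT-HSC WT and 19.3% ± 0.738 in ST-HSC WT (exact permutation p = 0.571), and without LT-HSC WT 1 the difference was 0.045 points. LINE took 19.4% ± 1.49 in LT-HSC WT and 19.7% ± 0.850 in ST-HSC WT, and DNA elements 4.74% ± 0.347 in LT-HSC WT and 4.88% ± 0.219 in ST-HSC WT (exact permutation p = 0.771 and 0.543). With 4 libraries against 4, the smallest p this test can give is 0.0286, and no class came near it.

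**Figure D1:**
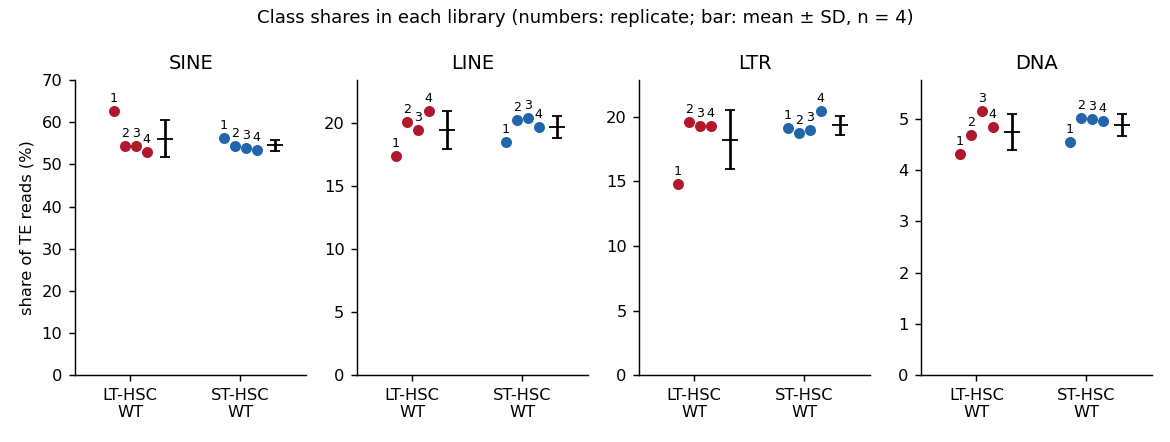
Share of TE reads (%, linear axis from 0) of the SINE, LINE, LTR and DNA classes in each of the 4 LT-HSC WT libraries (red) and 4 ST-HSC WT libraries (blue), numbered by replicate, with the mean ± SD of the group in black. LT-HSC WT 1 lies apart at 62.6% SINE and 14.8% LTR, and the other libraries of both groups overlap.

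The evenness of the TE reads was summarised as the effective number of subfamilies, the number of equally abundant subfamilies that would give the same Shannon entropy. It was 108.2, 142.9, 142.8 and 145.4 in LT-HSC WT and 135.0, 140.5, 143.7 and 145.9 in ST-HSC WT. The group means were 134.8 ± 17.8 in LT-HSC WT and 141.3 ± 4.75 in ST-HSC WT (exact permutation p = 0.743). Reads of LT-HSC WT 1 were concentrated in fewer subfamilies than those of the other 7, and without it the LT-HSC WT mean was 143.7 ± 1.47, above that of ST-HSC WT (exact permutation p = 0.514).

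No TE subfamily passed the test as higher or lower in LT-HSC WT than in ST-HSC WT. Of the 1146 subfamilies, 58 had no read in the 8 libraries, 153 had too few reads for the filter, and 935 were tested. None (0%) passed an adjusted p of 0.05 (Benjamini-Hochberg) by the quasi-likelihood test of edgeR, and the smallest adjusted p was 0.999. At an unadjusted p under 0.05 there were 20, of which 10 were higher and 10 lower in LT-HSC WT. That is fewer than the 1 in 20 tests that would fall there if nothing differed. The reason was not tested, and 0 calls do not show that the groups are the same. DESeq2 called 0 with 39 at an unadjusted p under 0.05, and limma-voom with quality weights called 0 with 42. Without LT-HSC WT 1 the edgeR count was again 0, with 33 at an unadjusted p under 0.05. Fold changes were positive for 415 subfamilies and negative for 520, with a median log2 fold change of -0.038 that became 0.0064 without LT-HSC WT 1.

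How large a difference could have been hidden depends on the abundance of the element. The 95% intervals below are those of single subfamilies, without adjustment for the number of tests. An interval can therefore exclude 0 for a subfamily that is not called, and a call needs a larger difference than the half-width. The 151 subfamilies with a mean of at least 1000 RPM over the 8 WT libraries hold 87.1% of all TE reads, and their 95% intervals reached a median of 0.32 log2 units to either side. For 140 of them (92.7%) the whole interval lay within 1 log2 unit of no change, and for 101 (66.9%) within 0.5. For the 331 subfamilies between 100 and 1000 RPM the median half-width was 0.74, with 162 intervals inside 1 log2 unit. For the 453 rarer ones it was 2.05, with 5 intervals inside, so that a doubling or more of most rare elements was not detectable at this depth and spread.

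**Figure D2:**
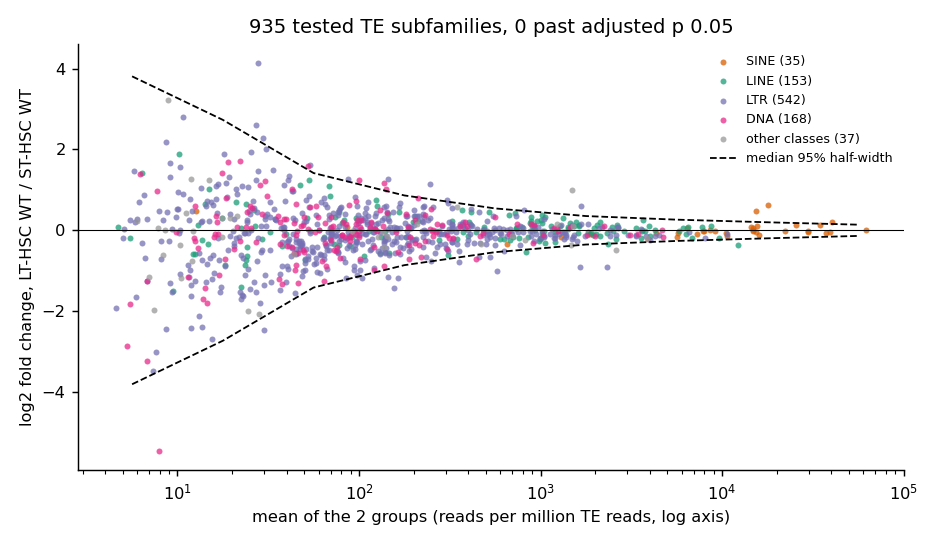
Log2 fold change, LT-HSC WT over ST-HSC WT, of the 935 tested subfamilies against their mean level (RPM, log axis), coloured by class, with dashed lines at the median 95% half-width of the fold change at each abundance. Abundant SINE and LINE subfamilies lie close to 0, rare LTR and DNA subfamilies spread widely, and none passed an adjusted p of 0.05.

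Summed over families, the picture was the same. None of 53 tested families (0%) passed an adjusted p of 0.05 in edgeR's test, 2 had an unadjusted p under 0.05, and DESeq2 called 0 with 4 at that level. The Alu family, which in mouse holds the B1 elements, was the most abundant at 21.8% ± 2.01 in LT-HSC WT and 21.1% ± 0.746 in ST-HSC WT. The L1 family took 17.5% ± 1.25 in LT-HSC WT and 17.6% ± 0.839 in ST-HSC WT, and B2 took 17.5% ± 3.81 in LT-HSC WT and 15.7% ± 0.731 in ST-HSC WT. ERVL-MaLR took 8.21% ± 1.05 in LT-HSC WT and 8.64% ± 0.403 in ST-HSC WT, ERVK 6.48% ± 0.782 in LT-HSC WT and 6.92% ± 0.257 in ST-HSC WT, and MIR 2.95% ± 0.456 in LT-HSC WT and 3.21% ± 0.154 in ST-HSC WT. Without LT-HSC WT 1 the log2 fold changes of these 6 families lay between -0.024 and 0.034.

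Among LTR elements, the intracisternal A particles (IAP) are young endogenous retroviruses of the ERVK family and a standard readout of lost DNA methylation in the mouse. Of 24 tested IAP subfamilies 8 had a positive and 16 a negative log2 fold change, with a median of -0.19, against -0.038 over all subfamilies. None was called, and without LT-HSC WT 1 the median was -0.002. IAPEz-int, the internal part of the main coding IAP, was at 4220, 8239, 8396 and 9257 RPM in LT-HSC WT 1 to 4 and at 8047, 6412, 8225 and 11495 in ST-HSC WT 1 to 4. LT-HSC WT 1 was the lowest, and the others overlapped (log2 fold change -0.18, SE 0.230, adjusted p = 0.999; 0.014 without LT-HSC WT 1). IAPLTR1_Mm, one of its promoter LTRs, was at 1326 ± 269 RPM in LT-HSC WT and 1362 ± 341 in ST-HSC WT.

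IAPEY4_I-int, an IAP internal part, had the most negative log2 fold change of the 3 IAP subfamilies with at least 1000 RPM. It was at 201, 1759, 2701 and 1783 RPM in LT-HSC WT and at 2646, 3063, 2993 and 3404 in ST-HSC WT. All LT-HSC WT libraries but LT-HSC WT 3 lay below every ST-HSC WT library, and LT-HSC WT 3 lay just inside their range. The log2 fold change was -0.91 (SE 0.518, adjusted p = 0.999 by edgeR), and -0.54 (SE 0.159, adjusted p = 0.995) without LT-HSC WT 1. In the knockout the levels were 1377, 347, 1396 and 1725 RPM in LT-HSC KO and 2668, 638, 2462 and 2471 in ST-HSC KO (log2 fold change -0.77, SE 0.558, adjusted p = 0.996). There, too, 3 ST-HSC KO libraries lay above all LT-HSC KO libraries, and ST-HSC KO 2 lay below 3 of them. IAPLTR4, a rarer IAP LTR named after its values were seen, had levels of 46.0 to 135 RPM in LT-HSC WT and 108 to 300.3 in ST-HSC WT (log2 fold change -1.42, SE 0.446, adjusted p = 0.999), and its log2 fold change in the knockout was -1.14 (SE 0.621, adjusted p = 0.996).

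ETn elements and their coding partner MusD, further ERVK retroviruses that still insert in laboratory mice, had positive log2 fold changes in 4 of 5 subfamilies, with a median of 0.51. Their levels varied widely between libraries of 1 group. MMETn-int was at 910, 1539, 648 and 730 RPM in LT-HSC WT and at 1634, 325, 270 and 465 in ST-HSC WT. ST-HSC WT 1 was above every LT-HSC WT library and the other 3 ST-HSC WT libraries below every one of them (log2 fold change 0.51, SE 0.521, adjusted p = 0.999). ETnERV-int was at 69.5, 241, 209 and 35.9 RPM in LT-HSC WT and 129, 54.4, 88.7 and 72.9 in ST-HSC WT, with full overlap. Its log2 fold change was 0.69 (SE 0.576), and 0.91 (SE 0.553) without LT-HSC WT 1. Of the 224 other ERVK subfamilies tested, 99 had positive and 125 negative fold changes (median -0.051; -0.0082 without LT-HSC WT 1). MMERVK10C-int, an internal part in this group, was at 399 ± 164 RPM in LT-HSC WT and 422 ± 83.1 in ST-HSC WT. RLTR10C, an ERVK LTR named after its values were seen, was at 439, 396, 274 and 421 RPM in LT-HSC WT and at 221, 248, 191 and 244 in ST-HSC WT, so that the groups did not overlap. Its adjusted p was 0.999 (log2 fold change 0.76, SE 0.245), and in the knockout its log2 fold change was -0.17 (SE 0.318). The difference between genotypes was not called (edgeR adjusted p = 0.9997). That test reuses the WT values for which RLTR10C was picked.

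The ERV1 family holds elements close to murine leukaemia virus and the VL30 elements, which are packaged into leukaemia virus particles. All 5 leukaemia virus-like subfamilies had negative log2 fold changes (median -0.51; -0.22 without LT-HSC WT 1), and none was called. RLTR4_MM-int, their main internal part, was at 273, 2224, 1075 and 1036 RPM in LT-HSC WT and at 1978, 3641, 836 and 2141 in ST-HSC WT. Both groups spread over several-fold and overlapped (log2 fold change -0.90, SE 0.533, adjusted p = 0.999; -0.57, SE 0.403, without LT-HSC WT 1). Its knockout fold change had the other sign, with levels of 4828, 531, 1955 and 873 RPM in LT-HSC KO and 3808, 709, 678 and 727 in ST-HSC KO (log2 fold change 0.47, SE 0.702). MMVL30-int, the VL30 internal part, was at 1563, 2296, 2871 and 981 RPM in LT-HSC WT and 2055, 1371, 1425 and 2120 in ST-HSC WT, which overlapped (log2 fold change 0.15, SE 0.290; 0.23, SE 0.296, without LT-HSC WT 1). MMERGLN-int, an ERV1 internal part, ranged from 268 to 3393 RPM in LT-HSC WT and from 385 to 2871 in ST-HSC WT. Its log2 fold change was 0.15 (SE 0.675), and 0.36 (SE 0.686) without LT-HSC WT 1, each smaller than its standard error.

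The ERVL side of the LTR class holds MERVL, known for its burst at the 2-cell stage of the mouse embryo, and the older, non-coding MaLR elements. MERVL-int was at 604, 1117, 870 and 685 RPM in LT-HSC WT and at 899, 408, 633 and 612 in ST-HSC WT, and its LTR MT2_Mm at 677 ± 122 in LT-HSC WT and 715 ± 78.9 in ST-HSC WT. The internal part thus had a log2 fold change of 0.36 (SE 0.267) and the LTR one of -0.080 (SE 0.185), neither called. Of 86 tested MaLR subfamilies, 27 had positive and 59 negative fold changes, with a median of -0.11 that became -0.0087 without LT-HSC WT 1. MTD, the most abundant MaLR, was at 10216 ± 516 RPM in LT-HSC WT and 10974 ± 1090 in ST-HSC WT, and MTA_Mm, an LTR known as a promoter in mouse oocytes, at 2699 ± 373 in LT-HSC WT and 2567 ± 173 in ST-HSC WT. ORR1A0, a young MaLR LTR, was at 396, 575, 364 and 626 RPM in LT-HSC WT and at 375, 305, 415 and 266 in ST-HSC WT, with overlap (log2 fold change 0.53, SE 0.255, adjusted p = 0.999).

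Among LINE, the element with the lowest unadjusted p of any abundant subfamily was Lx9, an old L1 subfamily of rodents. It was at 9578, 10491, 11731 and 11111 RPM in LT-HSC WT 1 to 4 and at 15203, 14713, 13686 and 11256 in ST-HSC WT 1 to 4. All ST-HSC WT libraries but ST-HSC WT 4 lay above all LT-HSC WT libraries, and ST-HSC WT 4 lay between LT-HSC WT 4 and LT-HSC WT 3. The log2 fold change was -0.35 (SE 0.105, 95% interval -0.58 to -0.12, unadjusted p = 0.0059, adjusted p = 0.999 by edgeR), and -0.30 (SE 0.0925) without LT-HSC WT 1. In the knockout Lx9 was at 10926, 9311, 10121 and 9792 RPM in LT-HSC KO and at 13814, 9886, 11994 and 11474 in ST-HSC KO (log2 fold change -0.23, SE 0.109, adjusted p = 0.996). LT-HSC KO was below ST-HSC KO for Lx9, IAPEY4_I-int and IAPLTR4 in each of the 4 same-numbered pairs, as it was for 89 of 1011 tested subfamilies (8.80%). With the replicate number as a block, the adjusted p of these 3 in the knockout was 0.960 by edgeR. The log2 fold changes with the block were -0.22 (SE 0.0924) for Lx9, -0.79 (SE 0.377) for IAPEY4_I-int and -1.43 (SE 0.493) for IAPLTR4. Lx8 and Lx, related old L1 subfamilies, had log2 fold changes of -0.19 (SE 0.126) and -0.20 (SE 0.160), and of -0.073 (SE 0.0654) and -0.12 (SE 0.150) without LT-HSC WT 1. Over all 124 old L1 subfamilies 67 were positive and 57 negative, with a median of 0.041 (0.063 without LT-HSC WT 1).

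Young L1 elements, among them the L1Md_A, L1Md_T and L1Md_Gf subfamilies that can still move in mice, had positive log2 fold changes in 5 of 6 subfamilies with a median of 0.082. L1Md_T was at 3677, 6473, 6894 and 8036 RPM in LT-HSC WT and at 4290.0, 6523, 6562 and 6562 in ST-HSC WT. Replicate 1 was the lowest library of each group, and the rest overlapped (log2 fold change 0.067, SE 0.216). L1Md_A was at 1561, 2786, 2948 and 3604 RPM in LT-HSC WT and at 1991, 2685, 2862 and 3015 in ST-HSC WT, again with replicate 1 lowest in each group. Its log2 fold change was 0.046 (SE 0.225), and 0.24 (SE 0.148) without LT-HSC WT 1. Without LT-HSC WT 1 the median of the 6 was 0.25, against 0.0064 over all subfamilies, and L1Md_T had 0.25 (SE 0.140, adjusted p = 0.995) and L1Md_F2 had 0.18 (SE 0.0899, adjusted p = 0.995). These values leave out the lowest LT-HSC WT library and keep ST-HSC WT 1, the lowest of its own group for L1Md_T and L1Md_A. That by itself raises the fold changes. A comparison without replicate 1 in both groups was not run. In the knockout the median of the 6 was 0.011. Young L1 reads per 100 old L1 reads were 10.1, 12.9, 14.0 and 15.6 in LT-HSC WT and 10.7, 12.1, 13.4 and 13.3 in ST-HSC WT, which overlapped. L2a, of an L2 family that predates rodents, was at 6123 ± 1370 RPM in LT-HSC WT and 6515 ± 201 in ST-HSC WT. Its log2 fold change was -0.090 (SE 0.148), and 0.055 (SE 0.0741) without LT-HSC WT 1.

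SINE subfamilies differed in how closely their libraries lay together. B3, a B2-related element and the most abundant subfamily of all, was at 63580, 59737, 63390 and 62490 RPM in LT-HSC WT and at 63065, 62495, 63029 and 60655 in ST-HSC WT. The 95% interval of its log2 fold change ran from -0.098 to 0.097. ID_B1, a B4-type fusion, and RSINE1 were almost as close, with intervals of -0.16 to 0.087 and -0.21 to 0.066. B2_Mm1a, one of the youngest B2 elements, was at 46025, 18057, 11965 and 10857 RPM in LT-HSC WT and at 17022, 15888, 12286 and 11422 in ST-HSC WT. LT-HSC WT 1 was far above all others, which overlapped. The log2 fold change was 0.62 (SE 0.384, adjusted p = 0.999) with that library and -0.055 (SE 0.173) without it. The same held for B2_Mm1t, named after its values were seen (0.48 with and -0.013 without it), B2_Mm2 (0.20 with, -0.0054 without), B1_Mus1 (0.13 with, -0.040 without) and B1_Mm (0.10 with, -0.11 without). MIR, an ancient SINE shared by mammals, was at 10162 ± 1520 RPM in LT-HSC WT and 11123 ± 881 in ST-HSC WT, and all 4 MIR subfamilies had negative fold changes (median -0.14; -0.041 without LT-HSC WT 1).

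**Figure D3:**
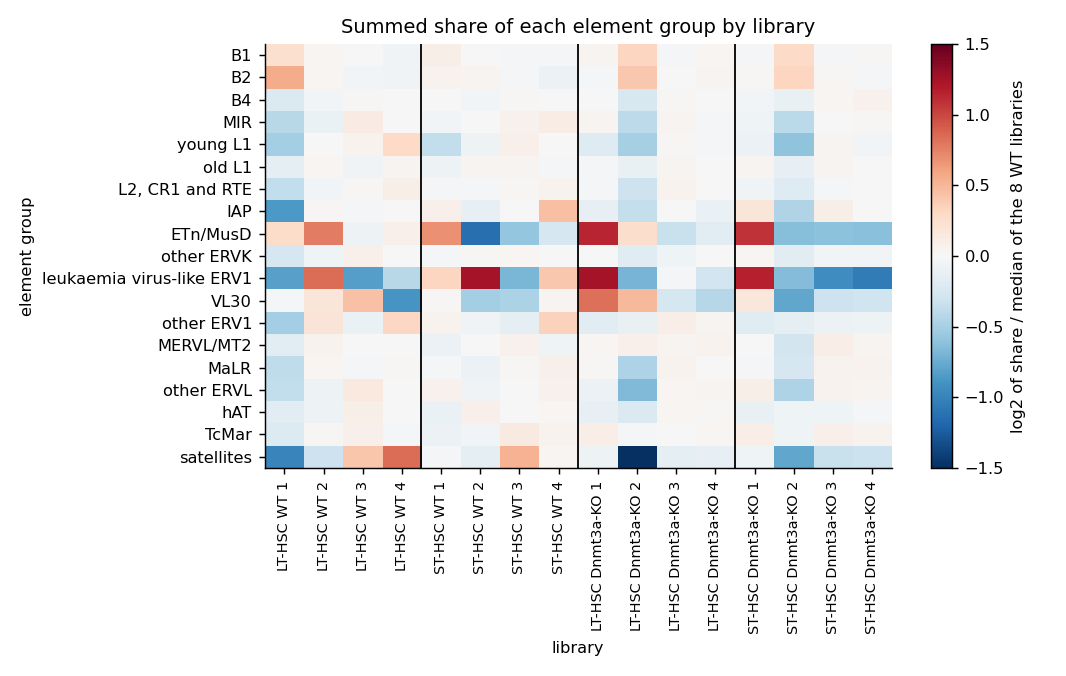
Summed share of each element group (rows) in the 16 LT-HSC and ST-HSC libraries of both genotypes (columns), as log2 of the share over the median of the 8 WT libraries. LT-HSC WT 1, LT-HSC KO 2 and ST-HSC KO 2, the 3 libraries with a SINE share above 60%, are high in B1 and B2 and low in MIR, MaLR, IAP and young L1, and ETn/MusD, leukaemia virus-like ERV1 and satellites vary between libraries of every group.

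High SINE shares were also found in a pair of knockout libraries. LT-HSC KO 2 and ST-HSC KO 2 had SINE shares of 61.7% and 60.8%, against 53.9% to 55.0% in the other 6 LT-HSC KO and ST-HSC KO libraries. They were not alone in the study, since the MEP Dnmt3a-KO libraries ranged from 53.3% to 69.8%, with a median of 64.0%. In LT-HSC KO 2 there were 12.3 TE reads per 100 gene reads, against 3.81 to 8.16 in the other LT-HSC KO libraries. The summed level of the 5 granulocytic and monocytic markers was 234 CPM in LT-HSC KO 2 and 14.4 to 88.2 CPM in the others, with Mpo at 175 CPM against 12.6 to 83.6. Ctsg, a granule protease on that list, was at 0.827 CPM in LT-HSC KO 2, within the 0.751 to 7.06 CPM of the others, and so was the megakaryocytic sum, at 308 CPM against 219 to 551. The source of these marker reads and their relation to the TE levels of LT-HSC KO 2 were not tested. B2_Mm1a was at 31831 RPM in LT-HSC KO 2 and 12045 to 15902 in the other LT-HSC KO libraries. In MEP Dnmt3a-KO it ranged from 28829 to 138618 RPM.

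No DNA element was called between the populations. The hAT group, whose ancestors gave rise to several mammalian genes, had 50 positive and 54 negative fold changes among 104 tested subfamilies (median -0.043; -0.019 without LT-HSC WT 1). The TcMar group, which includes the Tigger elements, had 21 and 32 among 53, and its median of -0.038 turned to 0.030 without LT-HSC WT 1. URR1B, with URR1A the most abundant of the hAT group, was at 4662 ± 246 RPM in LT-HSC WT and 4654 ± 306 in ST-HSC WT, and URR1A at 4442 ± 747 in LT-HSC WT and 4991 ± 255 in ST-HSC WT. The log2 fold change of URR1A was -0.17 (SE 0.127), and -0.059 (SE 0.0830) without LT-HSC WT 1. MER20, an older hAT element, was at 2428, 2356, 2276 and 2232 RPM in LT-HSC WT and 2017, 2208, 2258 and 2117 in ST-HSC WT. Only LT-HSC WT 4 lay within the ST-HSC WT range among these, and the log2 fold change was 0.11 (SE 0.108, adjusted p = 0.999).

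Satellite repeats, which the table lists with the TE, varied widely from library to library. GSAT_MM, the major satellite next to mouse centromeres, was at 299, 57.2, 2232 and 5370 RPM in LT-HSC WT and at 111, 85.8, 2865 and 929 in ST-HSC WT. Each group held libraries that differed by more than the groups did, and the log2 fold change of 0.99 had an SE of 1.22 (adjusted p = 0.999). Without LT-HSC WT 1 the GSAT_MM fold change was 1.35 (SE 1.18), and the median of the satellite group turned to 0.18 from -0.066. SYNREP_MM, another satellite, named after its values were seen, was high in the same libraries, with 0, 4.57, 505 and 1157 RPM in LT-HSC WT and 16.7, 5.76, 921 and 167 in ST-HSC WT.

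The groups did not overlap for 22 of the 935 tested subfamilies (2.35%), with LT-HSC WT above in 10 (1.07%) and below in 12 (1.28%). Only L1_Rod and ORR1B2 of these had at least 1000 RPM, and both are named after their values were seen. L1_Rod, an old L1, was at 2284, 2208, 2000 and 2046 RPM in LT-HSC WT and at 1974, 1961, 1954 and 1902 in ST-HSC WT (log2 fold change 0.13, SE 0.111). ORR1B2, a MaLR LTR, was at 1552, 1560, 1623 and 1511 in LT-HSC WT and at 1487, 1463, 1478 and 1301 in ST-HSC WT (log2 fold change 0.12, SE 0.123). The steps were small, and in the knockout L1_Rod had a log2 fold change of 0.037 (SE 0.130) and ORR1B2 one of -0.25 (SE 0.178).

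The knockout libraries allow the same contrast in cells that the wild-type test did not use. Of 1011 subfamilies tested in a model of all 16 libraries, none (0%) was called between LT-HSC KO and ST-HSC KO by edgeR, with 45 at an unadjusted p under 0.05. That model leaves the libraries unpaired. With the replicate number as a block the edgeR count was again 0, with 38 at that level. DESeq2 called 3, named here for that reason: L1ME3B, an old L1, at 399 to 516 RPM in LT-HSC KO and 182 to 277 in ST-HSC KO (DESeq2 adjusted p = 0.0411, edgeR adjusted p = 0.678), RLTR44B, at 0 to 2.87 in LT-HSC KO and 2.75 to 33.2 in ST-HSC KO, and Charlie1b_Mars, with reads in some LT-HSC KO libraries and 0 in all ST-HSC KO libraries. In WT, L1ME3B overlapped fully, at 276 to 486 RPM in LT-HSC WT and 264 to 445 in ST-HSC WT. The difference between the genotypes in the LT-HSC to ST-HSC contrast was called for none of 1011 subfamilies (0%) by edgeR, with 37 at an unadjusted p under 0.05, and for 1 by DESeq2, again Charlie1b_Mars. With the block edgeR called 0 for this difference, with 31 at that level. Over the 146 tested subfamilies with a mean of at least 1000 RPM over the 16 libraries of both genotypes, the knockout fold change had the sign of the wild-type one in 83 (56.8%), and in 78 (53.4%) without the 3 libraries of high SINE share. Pearson's r across these subfamilies was 0.22 and Spearman's rho 0.13, given as a description, since subfamilies of 1 library share its depth and its denominator.

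A comparison with committed progenitors, added after seeing the data, shows how many calls the same test makes where populations lie further apart. ST-HSC WT against CMP/GMP WT gave 25 calls among 919 subfamilies (2.72%), with 14 higher (1.52%) and 11 lower (1.2%) in ST-HSC WT. With TMM factors, which lowered the median log2 fold change of this comparison to 0.0095 from 0.13, there were 19 calls, 7 higher and 12 lower. LT-HSC WT against CMP/GMP WT gave 1 call among 920 (0.109%), and 16 without LT-HSC WT 1, 8 in each direction. The CMP/GMP WT libraries are shared by these comparisons. The call with LT-HSC WT 1 was MMVL30-int, at 981 to 2871 RPM in LT-HSC WT and 6537 to 15120 in CMP/GMP WT (log2 fold change -2.64, SE 0.346, adjusted p = 0.0127 by edgeR). In ST-HSC WT it was at 1371 to 2120 RPM (log2 fold change against CMP/GMP WT -2.79, SE 0.242, adjusted p = 6.1e-05). The levels of both stem cell populations lay below every CMP/GMP WT library and overlapped each other.

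Lx9 was called higher in ST-HSC WT than in CMP/GMP WT, where it was at 8367 to 9444 RPM (log2 fold change 0.63, SE 0.0883, adjusted p = 0.00303 by edgeR). Against the same CMP/GMP WT libraries, the LT-HSC WT fold change was 0.27 on the log2 scale (adjusted p = 0.261), and 0.33 (SE 0.0687, adjusted p = 0.0475) without LT-HSC WT 1. The LT-HSC WT levels lay between those of CMP/GMP WT and most of those of ST-HSC WT. B2_Mm1a was called lower in ST-HSC WT than in CMP/GMP WT (log2 fold change -0.91, adjusted p = 0.00905), and in LT-HSC WT it had -0.30 (adjusted p = 0.914), or -0.97 (adjusted p = 0.0408) without LT-HSC WT 1. With TMM factors the ST-HSC WT fold changes against CMP/GMP WT were 0.51 for Lx9 and -1.03 for B2_Mm1a.

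**Figure D4:**
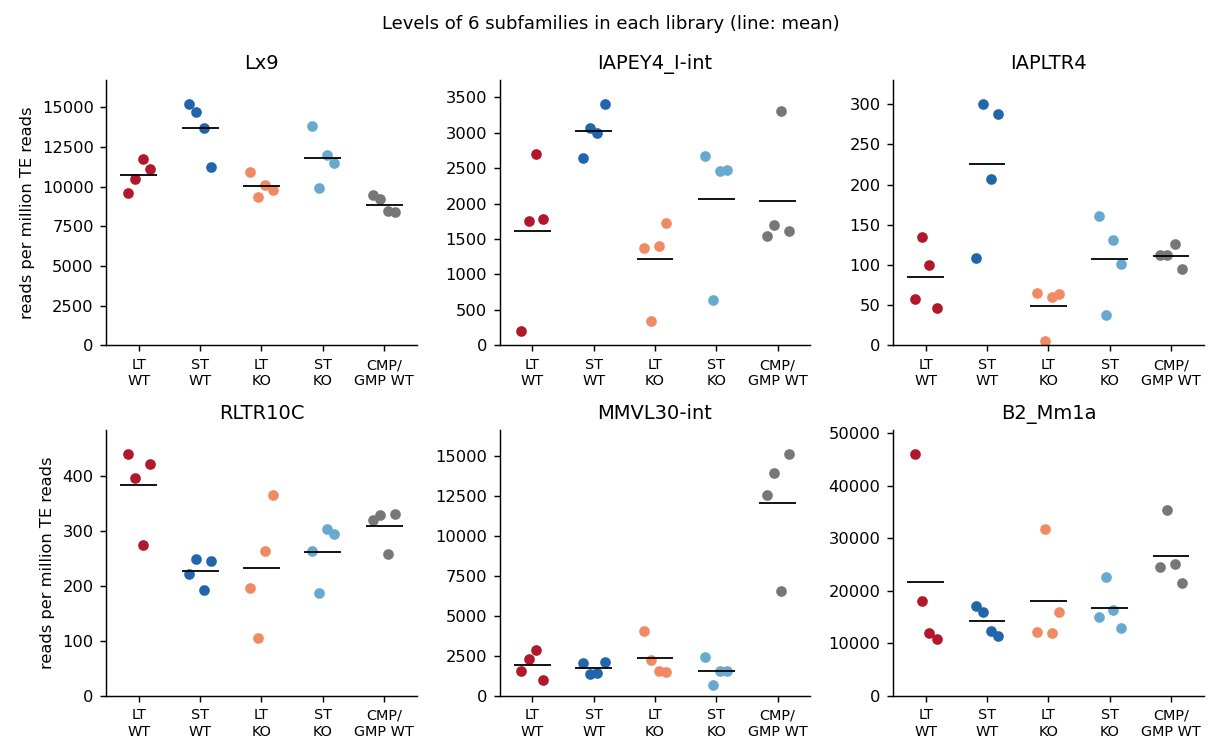
Levels (RPM, linear axes from 0) of 6 subfamilies in each LT-HSC WT, ST-HSC WT, LT-HSC KO, ST-HSC KO and CMP/GMP WT library (points), with group means (lines). Lx9, IAPEY4_I-int and IAPLTR4 have lower means in LT-HSC than in ST-HSC in both genotypes without passing the test, RLTR10C does not overlap between the WT groups and does between the KO groups, MMVL30-int is high in CMP/GMP, and B2_Mm1a has single high libraries.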

How the data were processed

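Libraries were made from polyA RNA by modified SMART-Seq2 amplification, per the labels' protocols. The values are the deposited raw read counts per TE subfamily, whose row names give family and class. Trim Galore 0.6.7, HISAT2, featureCounts 2.0.1, DESeq2 1.34.0 and mm10 are named in the submitters' processing notes. How strand, multi-mapping reads and subfamily assignment were handled is not stated in the sources used here, so near-identical young subfamilies may share reads. Of 40 TE columns all were mapped to a library by name. In the gene table, read for markers only, 32 columns were mapped and 8, which repeat ST-HSC WT names, were not used.

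Counts were tested in R 4.3.3 with edgeR 4.0.16 (quasi-likelihood test, library size equal to the TE reads, no further normalization, filterByExpr with a minimum count of 10 and a minimum total of 15, Benjamini-Hochberg adjustment, calls at 0.05). Class shares and effective numbers were tested by exact two-sided permutation over 70 splits. The script was tested on simulated data. Alternatives were TMM and RLE factors, DESeq2 1.42.0, limma-voom (limma 3.58.1), other filters and denominators, the replicate number as a block and leaving out each library. Same-numbered LT-HSC KO and ST-HSC KO libraries correlated in their deviations from the group means at 0.45, 0.49, 0.36 and 0.40 over 478 subfamilies. All LT-HSC KO libraries but LT-HSC KO 4 matched their own number best. These numbers were taken as pairs only in the results given with the replicate number as a block. All other knockout values come from the model without it, which leaves the libraries unpaired. In WT the numbers were not taken as pairs. Subfamilies were named by rule: called ones with large changes (there were none), a set list of 27 well-known elements, and the 2 most abundant of each of 19 element groups. Others are said to be named after their values were seen. The members, element groups and tests were chosen with earlier results of these data known. The labels name no animals, and the p-values rest on the spread among the 4 libraries of a group. Each LT-HSC group held libraries of both sexes, so its spread is at least in part between mice. In the other groups the spread may be technical. Sex was not a term in the tests.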

Additional observations from a re-analysis of the deposited data

Results flagged for a closer look

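In 19 of 166 sets of 4 libraries examined, the highest or lowest library lay far from the other 3 for the spread of its group. Chance flags about 1 in 20 such sets, and many of these sets overlap in the elements they count. That rate does not hold for subfamilies named after their values were seen, such as B2_Mm1t and ORR1B2 below. Of the 19, 11 concern LT-HSC WT 1, which was high in 4 and low in 7. It was high in the SINE share (62.6%, against 52.9% to 54.5% in LT-HSC WT 2 to 4), the B2 group (23.1%, against 15.2% to 16.1%), B2_Mm2 (60268 RPM, against 37375 to 38275) and B2_Mm1t (33732, against 11557 to 15070). It was low in the LTR share (14.8%, against 19.2% to 19.6%), the IAP group (0.802%, against 1.43% to 1.47%), the MaLR group (6.65%, against 8.58% to 8.84%), the effective number of subfamilies (108.2, against 142.8 to 145.4), B4 (12426, against 16119 to 16313), URR1B (4294, against 4770 to 4815) and Lx8 (6642, against 9749 to 9910). The other 8 concern 4 libraries. LT-HSC WT 2 was high in the leukaemia virus-like ERV1 group (0.608%) and in IAPLTR1_Mm (1728 RPM) and low in Tigger7 (1367 RPM), and LT-HSC WT 4 was high in ETnERV3-int (440.0 RPM). ST-HSC WT 1 was low in the DNA share (4.55%) and in L1Md_T (4290.0 RPM) and high in MMETn-int (1634 RPM), and ST-HSC WT 4 was low in ORR1B2 (1301 RPM).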

How the results depend on the processing

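The count of subfamilies called between LT-HSC WT and ST-HSC WT was 0 under each of the 18 other settings run, with 16 to 42 at an unadjusted p under 0.05, and the count of families was 0 under each of theirs. Between LT-HSC KO and ST-HSC KO, DESeq2 called 3 subfamilies against 0 by edgeR, and for the difference between genotypes 1 against 0. LT-HSC WT against CMP/GMP WT gave 16 calls without LT-HSC WT 1 against 1 with it. Of the 59 named subfamilies, 30 kept the sign of their log2 fold change throughout, and of 1059 values 95 differed in sign, 72 of them by less than 1 standard error. None was called under any setting. B3 turned positive with TMM (0.071), RLE (0.083) and DESeq2 factors (0.083), and ID_B1 likewise (0.024, 0.036 and 0.036). With voom weights, of which LT-HSC WT 1 had the lowest at 0.151, B1_Mm turned to -0.085, B1_Mus1 to -0.019, B2_Mm1a to -0.027 and B1_Mus2 to -0.011. With 1 library left out, the log2 fold change ranged from -0.11 to 0.19 for B1_Mm, -0.040 to 0.20 for B1_Mus1, -0.055 to 0.84 for B2_Mm1a, -0.0054 to 0.26 for B2_Mm2, -0.033 to 0.20 for B1_Mus2, -0.013 to 0.64 for B2_Mm1t and -0.23 to 0.29 for RLTR6-int. The lowest values came without LT-HSC WT 1 and, for RLTR6-int, without LT-HSC WT 3. Without LT-HSC WT 1 and with TMM factors, chosen after seeing the data, the first 6 of these were at -0.13, -0.059, -0.078, -0.024, -0.051 and -0.034. The causes were not tested. With the replicate block, 0 subfamilies and 0 families were called, in WT and, for subfamilies, in the knockout. Same-numbered LT-HSC WT and ST-HSC WT libraries correlated in their deviations at 0.044, 0.29, 0.22 and 0.14, and 2 of 4 LT-HSC WT libraries matched their own number best. Replicate 1 was not above 0.1, so the WT numbers were not taken as pairs. With the block, the adjusted p of Lx9, IAPEY4_I-int and IAPLTR4 in WT was 0.998 by edgeR.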

Other observations

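Satellite levels in LT-HSC can be set beside the sex of each library, which Xist, made from the inactive X, and Ddx3y, a gene of the Y chromosome, show. In the WT libraries GSAT_MM was at 2232 and 5370 RPM in LT-HSC WT 3 and 4, with Xist at 947 and 1187 CPM and Ddx3y at 0. It was at 299 and 57.2 RPM in LT-HSC WT 1 and 2, with Ddx3y at 439.5 and 119 CPM and Xist at 5.58 and 0.380 CPM. In the knockout it was at 603 and 710 RPM in LT-HSC KO 3 and 4, with Xist at 2293 and 1153 CPM, and at 74.99 and 294 RPM in LT-HSC KO 1 and 2, with Ddx3y at 93.9 and 216 CPM. The MEP WT libraries, another progenitor of the study, ranged from 120 to 11072 RPM. The sex of the ST-HSC libraries was not analysed here.

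MMETn-int and RLTR4_MM-int were highest in LT-HSC KO 1 and ST-HSC KO 1 among the LT-HSC KO and ST-HSC KO libraries. MMETn-int was at 2242 and 2093 RPM in these 2, and at 286 to 796 in the other 6. RLTR4_MM-int was at 4828 and 3808 RPM in these 2, and at 531 to 1955 in the other 6.

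Of the 32 libraries with mapped gene reads, 5 had more than 9 TE reads per 100 gene reads. They were LT-HSC WT 1, LT-HSC KO 2 and MEP Dnmt3a-KO 2, 3 and 4, and MEP Dnmt3a-KO 2 had only 3.44 M gene reads. No library lay between 8.16 and 9.41. The effective numbers of subfamilies in these 5 were 71.0 to 111.6, and those of the other 27 were 115.1 to 146.3. The lowest of the 27 was MEP WT 4, with 4.18 TE reads per 100 gene reads, and without it the lowest was 126.6. The 32 libraries mix populations and genotypes, among them Sting-KO and DKO c-kit+ cells, and the relation was not tested.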
